A study of Saccharomyces cerevisiae with 28 samples.

Results

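The comparison described here set the budding yeast strain 4Gts against the strain WT after 2 h at 36 °C in YPA medium, with 1 culture on each side. From each culture, ribosome-protected mRNA fragments (footprints) and mRNA were sequenced, so that 4 of the 28 libraries of the series entered it. A gene was kept when its level was at least 10 RPKM (reads per kilobase of gene, relative to library size) in all 4 libraries, which left 4423 of 6692 genes. Just inside that limit lay RRN5 and CTF19, whose lowest values were 10.01 RPKM each, and just outside it lay RRM3 and IRS4, whose lowest values were 9.9991 and 9.99 RPKM. Another 323 genes were not kept although they averaged at least 10 RPKM over the 2 strains in footprints and in mRNA, and 492 genes were listed at 0 in all 4 libraries.

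The series concerns cells depleted of eIF4G. The strain 4Gts is YWG1246 (YAJ41) and the strain WT is YWG1245 (YAJ3); no genotype is given for either in the sources used here, and no protein level was measured. Both strains were grown at 25 °C with 2% raffinose (pre-shift), given 2% galactose for 30 min at 25 °C (0 h), and then held at 36 °C for 2 h, so that galactose and heat are shared by both sides of the comparison. A second experiment in SC medium, with 2 samples per strain at 2 h, provided the replicates used for reference below.

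eIF4G is the scaffold protein of eIF4F. It holds the cap-binding protein eIF4E, the RNA helicase eIF4A and the poly(A)-binding protein together on an mRNA and recruits the small ribosomal subunit to it. Yeast has 2 eIF4G genes, TIF4631 and TIF4632. A temperature shift in yeast normally brings a wave of heat shock and general stress transcripts, governed by Hsf1 and by Msn2 and Msn4, and galactose induces the GAL genes through Gal4.

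Values are given as RPKM and as differences on the scale of log2(RPKM + 1) after each library was scaled to its table's mean library, 4Gts minus WT. Translational efficiency (TE) is log2 footprints minus log2 mRNA of one culture. A difference of 1 on this scale, which is 2-fold before the added 1, was used for counting. With 1 culture a side there is no replicate spread and no test in YPA; standard errors (SE) given for TE in YPA cover counting of reads only. At 2 h the depth recovered from the values was 1.36 M reads (M, 1000000) for 4Gts footprints, 3.70 M for WT footprints, 2.32 M for 4Gts mRNA and 2.62 M for WT mRNA. For a gene of 1 kb at 10 RPKM the counting error was therefore 27.5% in 4Gts footprints, 16.7% in WT footprints, 21.0% in 4Gts mRNA and 19.8% in WT mRNA. RPKM and the scaling remove any change shared by all genes. In a bulk culture, fewer cells with a transcript and less of it per cell cannot be told apart.

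Both cultures carried the markers of a-cells. Of 7 a-cell genes, the pheromone gene MFA1 had 3415 RPKM of mRNA in 4Gts and 1462 RPKM in WT, and the alpha-factor receptor gene STE2 had 1369 RPKM in 4Gts and 581 RPKM in WT. The alpha-cell pheromone gene MF(ALPHA)1 had 0.91 RPKM in 4Gts and 5.64 RPKM in WT, MF(ALPHA)2 was listed at 0 in both, and STE3, the receptor gene of alpha-cells, was listed at 0 in 4Gts and had 6.60 RPKM in WT. The other alpha-cell genes were low but present in mRNA. The agglutinin gene SAG1 had 16.0 RPKM in 4Gts and 10.49 RPKM in WT, with footprints listed at 0 in both, and AFB1, which encodes an a-factor barrier, had 10.6 RPKM in 4Gts and 11.1 RPKM in WT and passed the limit of 10 RPKM. TIF4632 mRNA was at 0.63 RPKM in 4Gts and 52.8 RPKM in WT, and its footprints were at 0.27 RPKM in 4Gts and 69.8 RPKM in WT. The same gap was present before the shift, at 1.29 RPKM of mRNA in 4Gts and 82.7 RPKM in WT. TIF4631 mRNA was at similar levels at 2 h, 175 RPKM in 4Gts and 208 RPKM in WT, whereas its footprints were at 75.6 RPKM in 4Gts and 168 RPKM in WT, a TE difference of −0.94. TIF4631 footprints were already lower in 4Gts before the shift, at 98.6 RPKM in 4Gts and 305 RPKM in WT. URA3, a pyrimidine synthesis gene often used as a selection marker, had 240.0 RPKM of mRNA in 4Gts and 119.5 RPKM in WT.

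The 2 strains differed far more in mRNA and in footprints than in their ratio. In mRNA, 331 genes (7.48% of those kept) were higher by at least 1 in 4Gts and 633 (14.3%) were lower by at least 1. In footprints, 450 genes (10.2%) were higher and 597 (13.5%) lower. In TE, 109 genes (2.46%) were higher and 97 (2.19%) lower, 4.66% in all. The split in mRNA depended on the scaling, since quantile normalization gave 489 higher and 592 lower genes, or 45.2% higher among those counted, against 34.3% with the median scaling. The medians over all genes kept were 0.02 for mRNA, 0.04 for footprints and 0.06 for TE.

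The mRNA difference between strains was wider after 2 h at 36 °C than at the stages before. Its SD over the genes kept was 0.40 at pre-shift, 0.49 at 0 h and 0.88 at 2 h. Footprint differences had an SD of 0.44 at pre-shift, 0.42 at 0 h and 0.90 at 2 h. At pre-shift 47 genes (1.06%) were higher and 90 (2.03%) lower by at least 1 in footprints, and at 0 h 84 (1.9%) were higher and 40 (0.904%) lower. TE differences had an SD of 0.37 at pre-shift, 0.40 at 0 h and 0.49 at 2 h. Of the 633 genes with lower mRNA at 2 h, 53 were lower by at least 1 at pre-shift (1.47% of all genes kept were) and 16 at 0 h (1.06% of all). Of the 331 genes with higher mRNA, 12 were higher at pre-shift (0.633% of all) and 69 at 0 h (3.37% of all). For TE, 6 of the 97 lower genes were also lower at pre-shift (0.723% of all) and 5 at 0 h (1.09% of all), and 5 of the 109 higher genes were also higher at pre-shift (1.04% of all) and 9 at 0 h (0.972% of all).

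Footprints mostly followed mRNA. Across the 4423 genes the differences in the 2 layers had a Spearman correlation of 0.801, a description across genes of the same cultures. There were 431 genes lower by at least 1 in both layers, which is 68.1% of those lower in mRNA and 72.2% of those lower in footprints. Another 221 genes were higher in both, which is 66.8% of those higher in mRNA and 49.1% of those higher in footprints. TE stayed within 1 for 579 of the 633 genes with lower mRNA (91.5%) and for 315 of the 331 with higher mRNA (95.2%). Among all genes kept 4.66% were at or past 1 in TE, so staying within 1 was no more frequent here than among all. Of the 633, 47 (7.42%) were higher in TE by at least 1, as were 2.46% of all genes kept.

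**Figure D1:**
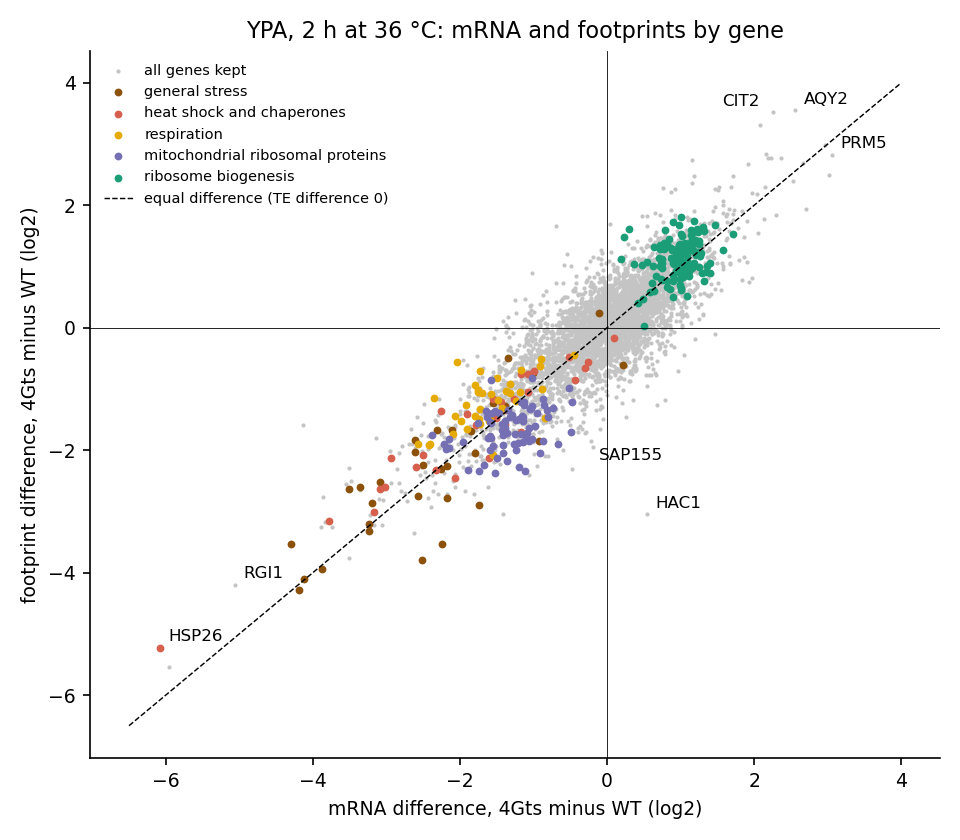
Difference in mRNA (horizontal axis) and in footprints (vertical axis) between 4Gts and WT at 36 °C for 2 h in YPA, both log2, 4Gts minus WT; each point is 1 of 4423 genes, coloured points are members of 5 gene lists, and the dashed line marks an equal difference in both layers. Heat shock and general stress genes lie at the lower left near the dashed line, ribosome biogenesis genes to the right of 0, and HAC1 lies far below the line.

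The largest differences were in stress genes whose mRNA was low in 4Gts at 36 °C. Of 31 general stress genes kept, 30 were below 0 and 28 were lower in mRNA by at least 1; the list median was −2.31. Of 31 heat shock and chaperone genes kept, 25 were lower by at least 1 and none was higher, with a median of −1.52. HSP26, a small heat shock protein that binds unfolded proteins, had 12.4 RPKM of mRNA in 4Gts and 887 RPKM in WT, and 59.5 RPKM of footprints in 4Gts and 2143 RPKM in WT. Its mRNA difference of −6.07 was the lowest of all genes kept. At pre-shift HSP26 mRNA stood at 9.44 RPKM in 4Gts and 13.8 RPKM in WT, and at 0 h at 22.3 RPKM in 4Gts and 70.0 RPKM in WT. EGO4, which is in no list here and had the next lowest difference (−5.95), had 22.0 RPKM of mRNA in 4Gts and 1395 RPKM in WT, and 51.5 RPKM of footprints in 4Gts and 2316 RPKM in WT. RGI1, also in no list and known from energy metabolism in respiratory growth, had 38.1 RPKM of mRNA in 4Gts and 1271 RPKM in WT, and 129.7 RPKM of footprints in 4Gts and 2265 RPKM in WT. RGI1 differed from HSP26 in its course, since at 0 h it was already at 829.6 RPKM in 4Gts and 1815 RPKM in WT. The general stress gene TMA10 was at 130.45 RPKM of mRNA in 4Gts and 2523 RPKM in WT (difference −4.29). STF2, a factor that stabilises the inhibited mitochondrial ATPase and protects cells on drying, was at 57.6 RPKM in 4Gts and 995 RPKM in WT (−4.12). HSP12, a membrane-stabilising stress protein, was not kept because its mRNA was at 7.02 RPKM in 4Gts, against 287 RPKM in WT.

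Other chaperone genes had the same direction as HSP26. HSP104, the disaggregase that pulls proteins out of aggregates, had 106 RPKM of mRNA in 4Gts and 884 RPKM in WT, and 204 RPKM of footprints in 4Gts and 1196 RPKM in WT. At 0 h its mRNA was closer between strains, at 511 RPKM in 4Gts and 755 RPKM in WT. The small heat shock protein gene HSP42 was at 16.7 RPKM of mRNA in 4Gts and 237 RPKM in WT, and HSP78, the mitochondrial disaggregase, was at 45.6 RPKM in 4Gts and 409.9 RPKM in WT. The TE medians of both lists were close to the median of all genes, 0.12 for general stress and 0.16 for heat shock. Of 36 proteasome genes kept, 18 were lower in mRNA by at least 1, with a median of −0.98, and 13 were with quantile normalization. UBI4, the polyubiquitin gene that is induced by stress, had 309 RPKM of mRNA in 4Gts and 911 RPKM in WT.

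Genes of reserve carbohydrates, some of them also in the general stress list, had low mRNA in 4Gts as well. In a list of glycogen and trehalose genes, added after values were seen, 12 of 16 kept were lower by at least 1 and the median was −2.40. PGM2, the phosphoglucomutase that feeds glycogen and trehalose synthesis and galactose use, had 40.7 RPKM of mRNA in 4Gts and 747 RPKM in WT, and 77.2 RPKM of footprints in 4Gts and 1446 RPKM in WT. Glycogen phosphorylase GPH1 was at 35.3 RPKM of mRNA in 4Gts and 403 RPKM in WT. In glycolysis and ethanol metabolism 10 of 20 genes kept were lower in mRNA by at least 1, with a median of −0.89; TDH1, a glyceraldehyde-3-phosphate dehydrogenase, was at 31.3 RPKM in 4Gts and 465 RPKM in WT. HXK1, a hexokinase, was at 394 RPKM in 4Gts and 3276 RPKM in WT.

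Genes of mitochondrial energy metabolism were lower in mRNA in 4Gts. Of 37 respiration genes kept, 32 were lower by at least 1 and none was higher, with a median of −1.69. SDH2, the iron-sulfur subunit of succinate dehydrogenase, had 91.2 RPKM of mRNA in 4Gts and 537 RPKM in WT, and 238 RPKM of footprints in 4Gts and 844 RPKM in WT. The list median was −0.20 at pre-shift and 0.01 at 0 h. In the TCA cycle 15 of 18 genes kept were lower and 2 higher. MDH1, the mitochondrial malate dehydrogenase, was at 91.0 RPKM of mRNA in 4Gts and 741 RPKM in WT, and LSC2, a subunit of succinyl-CoA ligase, at 42.9 RPKM in 4Gts and 356 RPKM in WT. Of the genes in the other direction, the peroxisomal citrate synthase CIT2 had 582 RPKM of mRNA in 4Gts and 119 RPKM in WT, and 281 RPKM of footprints in 4Gts and 22.2 RPKM in WT. HAP4, the activator subunit that limits respiratory gene expression, was at 100 RPKM of mRNA in 4Gts and 485 RPKM in WT, a difference of −2.30.

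Mitochondrial ribosomal protein genes were low in both layers, and more so in footprints. All 76 kept had lower mRNA in 4Gts, 63 of them by at least 1, with a median of −1.27. In footprints 73 of 76 were lower by at least 1 and the median was −1.65. Their TE median was −0.33, with 60 of 76 below 0 and 5 lower by at least 1. MRP4, a protein of the small mitochondrial subunit, had 60.3 RPKM of mRNA in 4Gts and 128.6 RPKM in WT, and 39.5 RPKM of footprints in 4Gts and 192 RPKM in WT. Its TE difference was −1.22. MRPL8, of the large subunit, had 58.7 RPKM of footprints in 4Gts and 286 RPKM in WT. This list was lower before the shift too, with an mRNA median of −0.71 at pre-shift and −0.57 at 0 h. Respiration genes went the other way in TE in YPA, with a median of 0.38, 33 of 37 above 0 and 3 higher by at least 1. Their mRNA median of −1.69 enters TE with the opposite sign. In SC at 2 h the TE medians of respiration genes were −0.01 and −0.25 in the 2 replicates. Those of mitochondrial ribosomal protein genes were −0.56 and −0.35. COX7, a small subunit of cytochrome c oxidase, had 383 RPKM of mRNA in 4Gts and 1551 RPKM in WT but 1423 RPKM of footprints in 4Gts and 1977 RPKM in WT.

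Galactose genes were lower in 4Gts at 2 h, and their median difference at 0 h was near 0. Of 10 kept, 9 were lower in mRNA by at least 1 and the median was −1.86, against a median of 0.05 at 0 h. GAL1, the galactokinase gene, had 35.3 RPKM of mRNA at pre-shift in 4Gts and 16.2 RPKM in WT. At 0 h it had 3754 RPKM in 4Gts and 3727 RPKM in WT. At 2 h it had 923 RPKM of mRNA in 4Gts and 6319 RPKM in WT, and 1873 RPKM of footprints in 4Gts and 11244 RPKM in WT. GAL2, the galactose permease gene, was at 291 RPKM of mRNA in 4Gts and 2439 RPKM in WT. UBR1, which encodes the E3 enzyme of N-end rule degradation, had a course like that of GAL1. Its mRNA was at 50.003 RPKM in 4Gts and 47.6 RPKM in WT at pre-shift, and at 1749 RPKM in 4Gts and 1849 RPKM in WT at 0 h. At 2 h it was at 482 RPKM in 4Gts and 2476 RPKM in WT, and UBR1 footprints were at 159.6 RPKM in 4Gts and 1154 RPKM in WT.

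**Figure D2:**
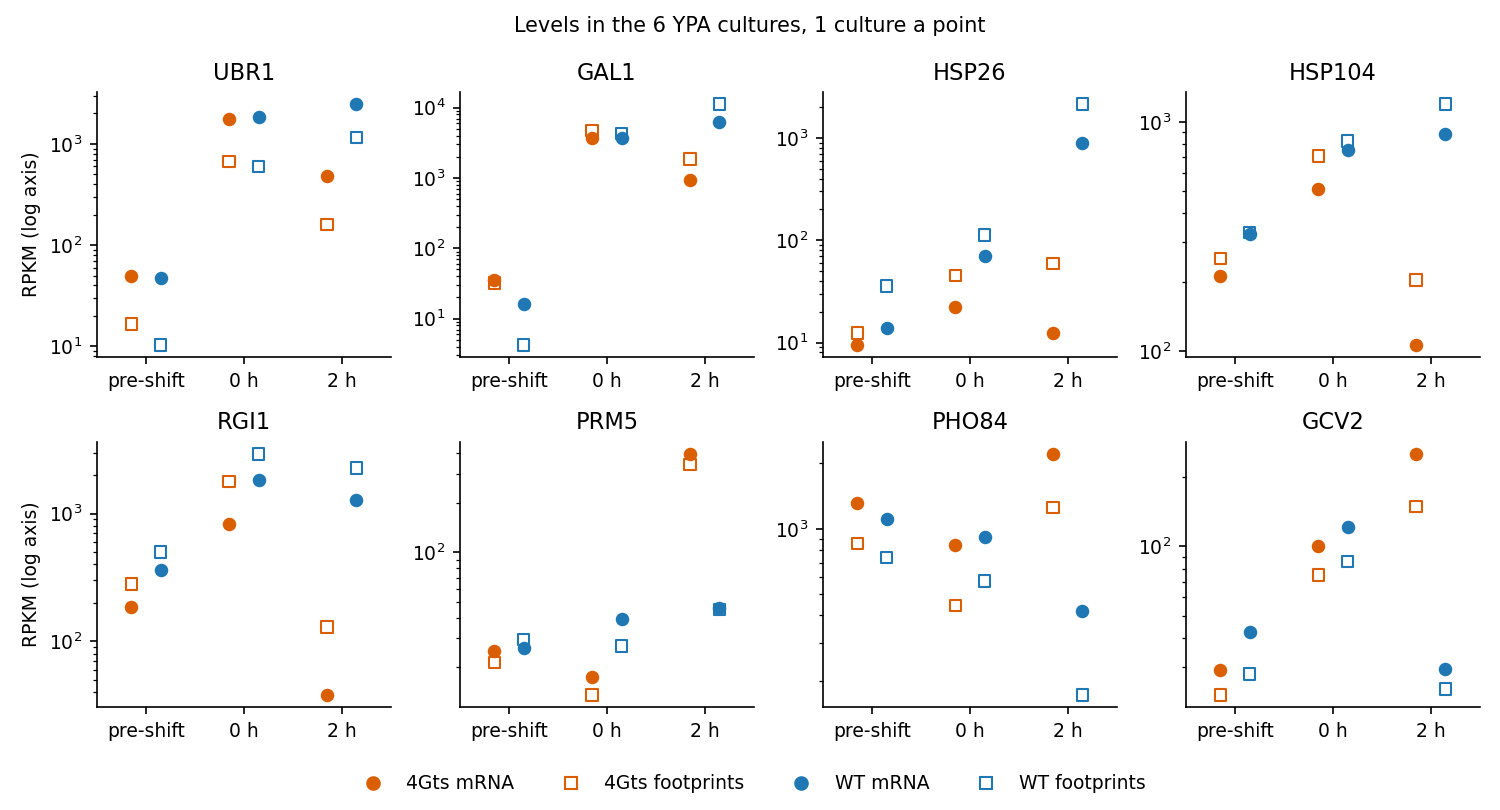
RPKM on a log axis of 8 genes at pre-shift, 0 h and 2 h in YPA, with 4Gts (orange) left of WT (blue); filled circles are mRNA and open squares footprints, 1 library each. UBR1, GAL1, HSP26, HSP104 and RGI1 have lower mRNA at 2 h in 4Gts, and PRM5, PHO84 and GCV2 have higher mRNA at 2 h in 4Gts.

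Ribosome biogenesis was the list with the most genes higher in mRNA in 4Gts. Their products build and process the pre-ribosome in the nucleolus. Of 128 kept, 65 were higher by at least 1 and none was lower, with a median of 1.001. All 128 were above 0 with either scaling, and with quantile normalization 99 were higher by at least 1. RPF1, needed for the large subunit, had 156 RPKM of mRNA in 4Gts and 46.0 RPKM in WT. NOP7, also of the large subunit pathway, had 356 RPKM in 4Gts and 152 RPKM in WT. The difference was present earlier, with list medians of 0.41 at pre-shift and 0.83 at 0 h. Cytosolic ribosomal protein genes differed less, with a median of 0.33 in mRNA, 3 of 138 higher by at least 1 and none lower. Their TE median was 0.29, and 0.14 with quantile normalization. RPL7B was at 356 RPKM of mRNA in 4Gts and 107 RPKM in WT, but ribosomal protein genes have near-identical copies among which the reads may have been split.

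Some genes of the cell wall integrity response were higher in 4Gts. This response runs from sensors in the plasma membrane through protein kinase C to the MAP kinase Slt2. SLT2 mRNA was at 493 RPKM in 4Gts and 83.0 RPKM in WT, and its footprints were at 302 RPKM in 4Gts and 53.4 RPKM in WT. Before the shift SLT2 mRNA was level, at 73.8 RPKM in 4Gts and 75.4 RPKM in WT. PRM5, a membrane protein gene induced by this pathway, had 397 RPKM of mRNA in 4Gts and 45.8 RPKM in WT, and 343 RPKM of footprints in 4Gts and 44.9 RPKM in WT. PST1, a cell wall protein gene, had 445 RPKM in 4Gts and 104 RPKM in WT. A list of cell wall integrity signalling genes was added after values were seen. Of 15 kept, 6 were higher by at least 1 and none was lower. In the cell wall list, which shares genes with it, 12 of 32 were higher and 1 was lower. Of all genes kept, 7.48% were higher.

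In the phosphate, purine, amino acid and ergosterol lists, more genes were higher than lower by at least 1 in 4Gts. In a list of phosphate genes added after values were seen, 11 of 21 kept were higher in mRNA by at least 1, none was lower, and the median was 1.23. PHO84, the high-affinity phosphate transporter, had 2204 RPKM of mRNA in 4Gts and 419 RPKM in WT, and 1252 RPKM of footprints in 4Gts and 172.5 RPKM in WT. PHO84 mRNA was similar at 0 h, at 841 RPKM in 4Gts and 912 RPKM in WT. GCV2, a subunit of the glycine cleavage complex, had 251 RPKM of mRNA in 4Gts and 29.2 RPKM in WT, and 149 RPKM of footprints in 4Gts and 24.1 RPKM in WT. ADE17, a purine synthesis enzyme, had 219.7 RPKM of mRNA in 4Gts and 26.8 RPKM in WT. Of 14 purine genes kept 7 were higher and none lower. The methionine permease MUP1 was at 298 RPKM in 4Gts and 58.6 RPKM in WT.

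Among amino acid synthesis genes 15 of 56 were higher and 1 lower, with a median of 0.56. Of 10 auxotrophic marker genes kept, 5 were higher and none lower, with a median of 0.997. In ergosterol synthesis 10 of 24 were higher and none lower; ERG11, the lanosterol demethylase targeted by azole drugs, had 1529 RPKM of mRNA in 4Gts and 472 RPKM in WT. The water channel gene AQY2 had 708 RPKM of mRNA in 4Gts and 116.5 RPKM in WT, and 1300 RPKM of footprints in 4Gts and 104 RPKM in WT, a footprint difference of 3.55. Of the 7 a-cell genes kept, 5 were higher by at least 1, and of 13 pheromone response genes 5 were; AGA1, the anchor of the mating agglutinin, was at 84.3 RPKM in 4Gts and 21.1 RPKM in WT.

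**Figure D3:**
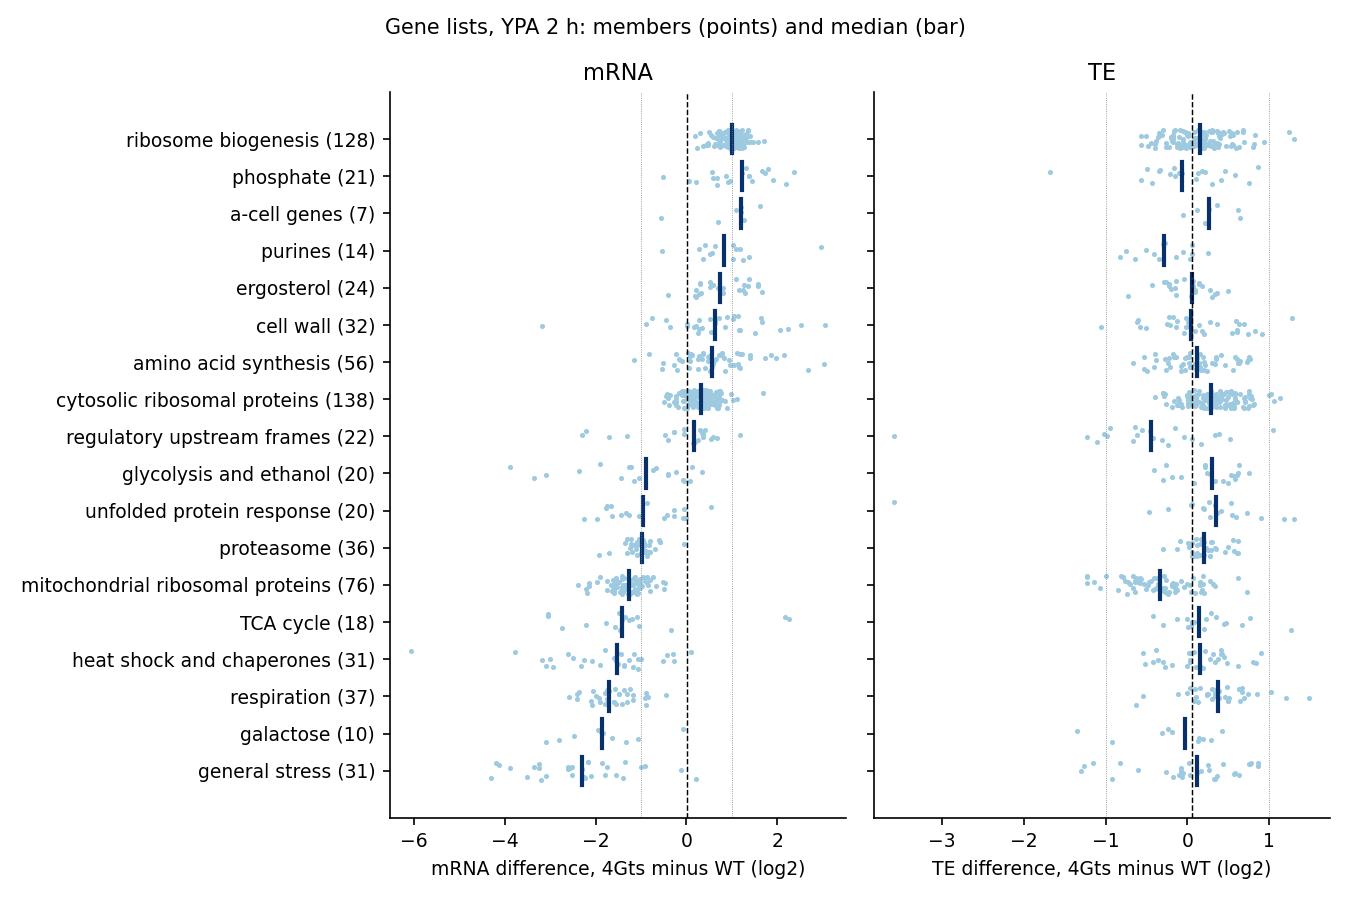
Differences between 4Gts and WT at 36 °C for 2 h in YPA (log2, 4Gts minus WT) for the members kept of 18 gene lists, in mRNA and in TE; points are genes, bars their medians, the dashed line is the median of all genes kept and dotted lines mark a difference of 1 either way. In mRNA the lists spread from a median of −2.31 for general stress to 1.23 for phosphate, while all TE medians stay within 1 of 0.

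TE differed most for HAC1. Hac1 drives transcription in the unfolded protein response, and its unspliced mRNA is known to be held silent by its own intron. HAC1 mRNA was abundant in both strains, at 2952.5 RPKM in 4Gts and 1983 RPKM in WT, whereas its footprints were at 47.0 RPKM in 4Gts and 373 RPKM in WT. The TE difference was −3.59 (counting SE 0.19). At 0 h HAC1 already had 39.7 RPKM of footprints in 4Gts and 109.8 RPKM in WT, with a TE difference of −2.29. KAR2, the chaperone of the endoplasmic reticulum and a Hac1 target, had 169 RPKM of mRNA in 4Gts and 798 RPKM in WT. Of 20 genes of the unfolded protein response kept, 10 were lower in mRNA by at least 1 and none was higher, with a median of −0.96.

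Genes with regulatory upstream open reading frames or related leader controls had lower TE as a list. Of 33 listed, 31 were in the files and 22 were kept; 16 of these were below 0, 4 were lower by at least 1 and 1 was higher, with a median of −0.44, beside 0.06 for all genes. With quantile normalization 6 were lower and without scaling 3 were. The 4 were HAC1, PCL5 and, chosen after their values were seen, the oxidative stress regulator gene YAP1 (−1.23) and the cell wall integrity kinase gene MKK1 (−1.10). PCL5, a cyclin that marks Gcn4 for destruction, had 178 RPKM of mRNA in 4Gts and 152 RPKM in WT, and 12.2 RPKM of footprints in 4Gts and 21.2 RPKM in WT. Its TE difference was −1.02 (counting SE 0.49) and −0.98 without scaling. CLN3, the G1 cyclin that sets the size at which cells enter the cycle, was not kept because its footprints were at 9.03 RPKM in 4Gts, against 25.1 RPKM in WT. CLN3 mRNA was at 135 RPKM in 4Gts and 125 RPKM in WT, and its TE difference was −1.53 (counting SE 0.35). GCN4, the activator of amino acid synthesis whose translation is set by upstream frames, had 1639 RPKM of mRNA in 4Gts and 1333 RPKM in WT, and 39.6 RPKM of footprints in 4Gts and 46.0 RPKM in WT, a TE difference of −0.56 (counting SE 0.25).

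Of the other genes with low TE in 4Gts, ATG19, a receptor of selective autophagy, had 89.8 RPKM of mRNA in 4Gts and 101 RPKM in WT, and 20.5 RPKM of footprints in 4Gts and 77.5 RPKM in WT. SAP155, a subunit that works with the Sit4 phosphatase, had 94.7 RPKM of mRNA in 4Gts and 108 RPKM in WT, and 14.6 RPKM of footprints in 4Gts and 52.6 RPKM in WT. Their TE differences were −1.75 and −1.63, with counting SEs of 0.29 and 0.21. Some of the lowest values rested on few reads, as for MRX7 (−1.95, counting SE 0.87) and NBL1 (−1.97, counting SE 0.74). PAB1, the poly(A)-binding protein and a partner of eIF4G, had 673 RPKM of mRNA in 4Gts and 583 RPKM in WT, and 605 RPKM of footprints in 4Gts and 854 RPKM in WT (TE difference −0.75, counting SE 0.06). In the eIF4F and cap-binding list 13 of 15 genes were kept, TIF4631 and PAB1 among them, and TIF4632 and DBP1 were not. None of the 13 had a difference past 1 in TE or in mRNA. Of all genes kept, 4.66% passed in TE and 21.8% in mRNA, so that none of 13 in TE is near that share. The list's TE median was 0.01. CDC33, the gene of eIF4E, had a TE difference of 0.47, TIF1 and TIF2, the near-identical genes of eIF4A, had 0.56 and 0.25, and the helicase gene DED1 had 0.00.

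The layers of the genes with higher TE in 4Gts varied. Of the 109, 47 were lower in mRNA by at least 1, as were 14.3% of all genes kept. By at least 1, 33 were higher in footprints, as were 10.2% of all, and 29 were within 1 in both. Since TE subtracts mRNA from footprints of the same libraries, its definition favours lower mRNA or higher footprints among these genes, counting error included. DAD4, a kinetochore protein gene, had 141 RPKM of mRNA in 4Gts and 368 RPKM in WT, with 193 RPKM of footprints in 4Gts and 170.1 RPKM in WT. PEX17, a peroxisome import protein gene, had 18.6 RPKM of mRNA in 4Gts and 53.7 RPKM in WT, with 42.4 RPKM of footprints in 4Gts and 40.6 RPKM in WT. OLI1, encoded in the mitochondrial genome and made by mitochondrial ribosomes, had the highest TE difference among genes with a symbol, 2.36, but on 46.4 RPKM of footprints in 4Gts and 13.1 RPKM in WT (counting SE 0.61). HXT7, a hexose transporter gene with a near-identical copy in HXT6, had a TE difference of 1.91. CIT2 and CTP1, the mitochondrial citrate carrier, were higher in TE as well as in mRNA, with TE differences of 1.27 and 1.24. In SC at 2 h their mean TE differences were below 0, at −0.45 and −0.64.

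Short genes made up a larger share of the genes with higher TE than of all genes kept. Of the 98 with a RefSeq length, 41 (41.8%) were under 500 nt, against 9 of 94 (9.57%) among those with lower TE and 509 of 4378 (11.6%) among all genes kept with a length. Across 5 bins of gene length with equal numbers of genes, the median TE difference was 0.23 in the shortest and −0.06 in the longest, with a Spearman correlation of −0.223 over 4377 genes that share the same 4 libraries. In the shortest bin the mRNA median was −0.32 and the footprint median −0.10, so that the higher TE went with lower mRNA and not with higher footprints. In the longest bin these medians were 0.12 and 0.01. At 0 h the TE medians were 0.10 in the shortest bin and −0.04 in the longest. In SC at 2 h the shortest bin had TE medians of 0.08 and −0.12 in the 2 replicates. TE spread more widely over genes in 4Gts than in WT, with a 5th to 95th percentile range of 2.41 in 4Gts and 2.22 in WT at pre-shift, 2.49 in 4Gts and 2.35 in WT at 0 h, and 3.01 in 4Gts and 2.73 in WT at 2 h. Depth differed in the same direction, with fewer footprint reads at 2 h in 4Gts, and among 2048 genes with at least 100 reads in every library the range was 2.77 in 4Gts and 2.54 in WT; the part of depth in the rest was not tested.

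**Figure D4:**
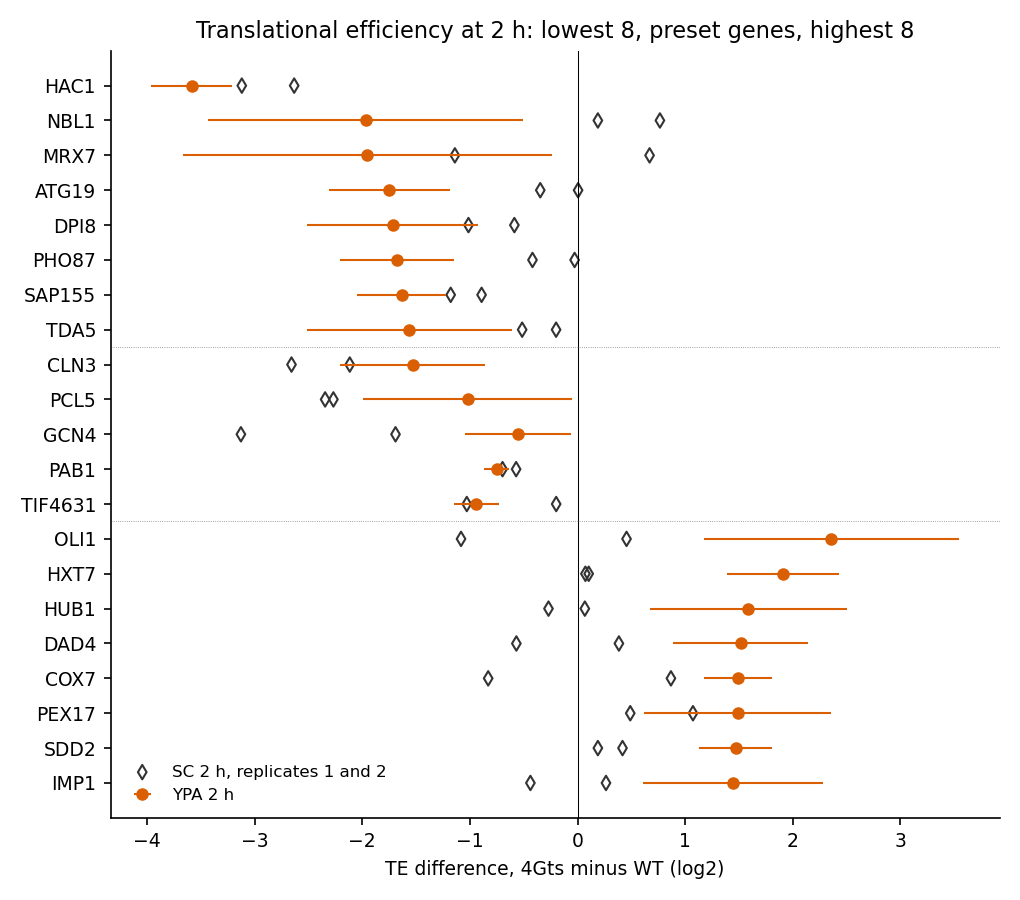
TE difference between 4Gts and WT (log2, 4Gts minus WT) for the 8 lowest genes, 5 preset genes and the 8 highest genes at 36 °C for 2 h in YPA; points are the YPA value with a bar of 1.96 counting SEs either way, and open diamonds are the 2 SC replicates at 2 h. The SC diamonds lie below 0 for HAC1, CLN3, PCL5 and GCN4.

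The SC samples gave the only replicate spread at 2 h. Nothing in the labels says whether the 2 SC replicates came from separate cultures, so p-values measure the spread between these samples. limma on the SC samples called 8 of 4689 genes in TE (0.171%), all lower in 4Gts, and 3 in mRNA (0.064%); with the replicate number as a block it called 321 in TE (6.85%; 1.98% higher, 4.86% lower) and 1244 in mRNA (26.5%). Of the 8 called in TE without the block, CLN3, PCL5, MTO1, MRPL4 and TIM23 had TE differences below 0 in YPA as well. YPR108W-A (2.87), DSF1 (0.71) and YGL088W (0.31) had TE differences above 0 in YPA, where only YGL088W of these was kept. Unadjusted p was below 0.05 for 958 genes in TE and 917 in mRNA. The YPA differences and the mean SC differences had a Spearman correlation over 4081 shared genes of 0.598 in mRNA, 0.760 in footprints and 0.226 in TE. Between the 2 SC pairs it was 0.672 in mRNA, 0.715 in footprints and 0.474 in TE.

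Lower mRNA in YPA went with lower mRNA in SC more often than among all genes: 349 of 615 genes (56.7%) had both SC samples of 4Gts below both of WT, as did 24.4% of the 4081 shared genes. Of the 292 with higher mRNA, 176 (60.3%) were higher in both, as were 27.7% of all. In TE, 56 of 91 lower genes (61.5%) were lower in both SC samples, as were 25.3% of all. Of 98 genes with higher TE, 31 (31.6%) were higher in both, close to the 26.7% of all genes. In the opposite direction in SC were 6 of the 91 (6.59%, where 26.7% of all were higher) and 11 of the 98 (11.2%, where 25.3% of all were lower). In mRNA 27 of the 615 and 4 of the 292 were opposite, and in footprints 7 of 582 lower and 1 of 409 higher genes. Calls of limma with the block gave 205 of the 615 genes with lower mRNA called lower in SC (9.51% of the shared genes were) and 140 of the 292 with higher mRNA called higher (15.1%). In TE they gave 24 of 91 called lower (4.31% of the shared genes) and 10 of 98 called higher (2.21%). The footprint shares were 413 of 582 lower genes (71.0%, beside 24.6% of all) and 306 of 409 higher genes (74.8%, beside 28.7% of all).

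Gene by gene, TE of CLN3 and PCL5 was lower in 4Gts than in WT in SC, by 2.39 and 2.31 on the log2 scale (limma, adjusted p = 0.042 each, n = 2 samples per strain). With the replicate block the limma adjusted p was 0.007 for CLN3 and 0.011 for PCL5. HAC1 differed by −2.88 in TE in SC (limma adjusted p = 0.062, 0.013 with the block), and GCN4 by −2.41 (limma adjusted p = 0.102, 0.017 with the block). PAB1 differed by −0.63 (limma adjusted p = 0.153, 0.051 with the block), SAP155 by −1.03 (0.119, 0.032 with the block) and MRP4 by −1.13 (0.052, 0.019 with the block). Among other genes with high or low TE in YPA, NBL1 (0.48), DAD4 (−0.09) and OLI1 (−0.31) had SC means of the opposite sign, as had CIT2 and CTP1. ATG19 (−0.17), MRX7 (−0.23), HXT7 (0.09) and PEX17 (0.78) had the same sign as in YPA. None of these passed in limma, with or without the block. With 1 SC replicate left out in turn, the adjusted p ranged from 0.040 to 0.241 for CLN3 and from 0.026 to 0.241 for PCL5, and each passed in 1 of 8 such limma fits. In mRNA TIF4632 was lower by 4.21 in 4Gts than in WT in SC (limma adjusted p = 0.002). This call did not hold in every fit with 1 replicate left out. The genes given next did not pass without the block. RGI1 differed by −2.70 in SC mRNA (limma adjusted p = 0.070, 0.007 with the block) and HSP26 by −2.03 (limma adjusted p = 0.432, 0.023 with the block). PHO84 differed by 4.18 (limma adjusted p = 0.066, 0.004 with the block), SLT2 by 1.58 (0.065, 0.007 with the block) and PRM5 by 1.25 (0.188, 0.007 with the block). UBR1 differed by −2.63 (limma adjusted p = 0.170, 0.048 with the block), and GAL1 by −2.14 (limma adjusted p = 0.285, 0.060 with the block), short of the threshold in both. URA3 differed by 4.04 in SC mRNA (limma adjusted p = 0.053, 0.007 with the block). Its TE differed by −1.19 in SC (limma adjusted p = 0.068, 0.021 with the block).

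Some lists had many genes called in SC in the direction seen in YPA and others had few. For mitochondrial ribosomal proteins limma with the block called 53 of 76 genes lower in SC mRNA and none higher, where 12% of all tested genes were called lower. Heat shock had 17 of 34 lower, galactose 6 of 10 lower and the glycogen and trehalose list 6 of 19 lower, with none higher in these 3. Ribosome biogenesis had 40 of 112 called higher and none lower, where 14.5% of all were called higher, and ergosterol 17 of 24 higher. Respiration differed: 4 of 38 genes were called lower and 1 higher in SC, and the SC medians were 0.01 and −0.14, beside −1.69 in YPA. Proteasome genes had 2 of 36 lower in SC. General stress had 8 of 40 lower in SC, with medians of −0.54 and −0.33 in SC beside −2.31 in YPA. The phosphate list had 6 of 18 called higher in SC and none lower, with SC medians of 0.46 and −0.05 beside 1.23 in YPA. Cytosolic ribosomal protein genes showed the reverse gap, with 129 of 138 called higher in SC and SC medians of 0.86 and 1.78, beside 0.33 in YPA. Without the block the 3 genes called in SC mRNA were TIF4632, YJL107C and CWP1. Their mRNA differences in YPA were −5.04, 2.71 and 0.28. The differences between media were not tested.

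**Figure D5:**
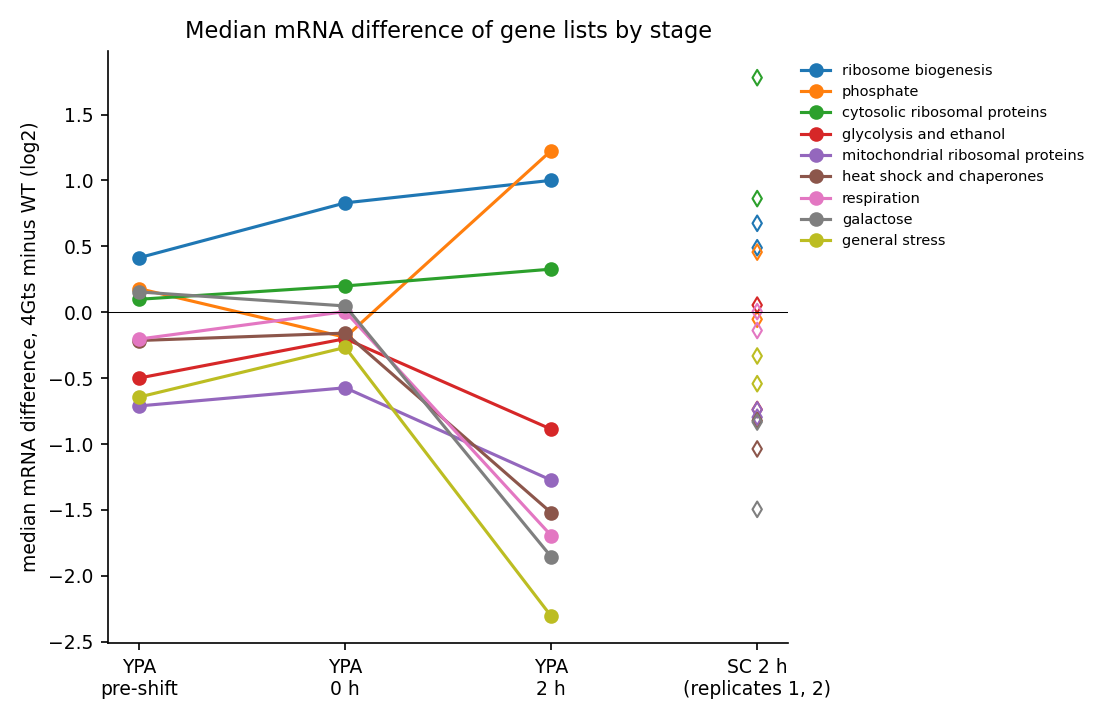
Median mRNA difference between 4Gts and WT (log2, 4Gts minus WT) of 9 gene lists in YPA at pre-shift, 0 h and 2 h, and in the 2 SC replicates at 2 h (diamonds). Respiration has a median of −1.69 at 2 h in YPA and medians of 0.01 and −0.14 in SC, while mitochondrial ribosomal proteins are below 0 at every point.

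A few genes had at least 30 RPKM of mRNA in one strain and under 2 RPKM in the other at 2 h in YPA. YFL051C was the only one on the 4Gts side, with 32.7 RPKM in 4Gts and listed at 0 in WT. On the WT side were 6 genes: TIF4632, RGI2 with 1.82 RPKM in 4Gts and 114 RPKM in WT, DSF1 with 1.73 RPKM in 4Gts and 68.4 RPKM in WT, ROQ1 with 1.48 RPKM in 4Gts and 34.1 RPKM in WT, and the frames YER138W-A and YGR174W-A, listed at 0 in 4Gts with 89.6 RPKM and 72.7 RPKM in WT.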

How the data were processed

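Footprint and mRNA libraries were made from the same cultures. Per the labels' protocols, cycloheximide was added to 0.1 mg/ml before harvest, RNase digestion gave the footprints, and total RNA was depleted of ribosomal RNA with Ribo-Zero, fragmented and size-selected at 26 to 40 nt. The submitters' processing notes name TopHat, DESeq and the build sacCer3; the labels and notes state no version, counting rule or use of strand. Deposited by the authors were RPKM values, 1 column per library, and for YPA and SC a table of the linear ratio of footprints to mRNA. Each column of the authors' deposited YPA ratio table, with 4219 genes, equalled a constant between 1.31 and 1.46 times the RPKM ratio.

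Taking 24 nt off the gene length turned low RPKM values into whole reads (96.2% to 98.2% of them within 0.05 reads, up to 10 reads), from which depths and counting errors were taken. The 12 YPA libraries held 1.36 to 5.65 M reads. From the deposited RPKM, log2(RPKM + 1) was taken after dividing each library by the median, over genes, of its ratio to the table's mean library; folds of low genes are understated. Symbols came from RefSeq by locus tag, with a symbol for 4168 of 4423 genes kept. Genes with near-identical copies or antisense neighbours are uncertain. limma 3.58.1 in R 4.3.3 (lmFit, eBayes) used all 8 SC samples and 1 mean per group, with Benjamini-Hochberg adjustment and a threshold of 0.05. Python 3.11.15, pandas 2.3.3, numpy 2.4.6 and matplotlib 3.10.9 did the rest, and the fit was tested on simulated data.

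SC samples with the same replicate number deviated together from their group means: the correlations at 2 h and 8 h were 0.689 and 0.715 in footprints, 0.591 and 0.692 in mRNA, and 0.200 and 0.341 in TE. The titles give the numbers, and the fit with the number as a block is given beside the SC results.

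Genes named are 20 preset ones, the 8 highest and 8 lowest genes with a symbol in mRNA, footprints and TE, up to 4 members per list with the largest difference, and genes with at least 30 RPKM of mRNA in one strain and under 2 in the other; the a-cell and alpha-cell markers were fixed as a check. The members, the 34 gene lists and the rules were chosen with earlier results of these data known, and 4 further lists were added after values were seen. Some lists share genes, so their counts are not separate. Alternatives tried were another added value, scaling, filter, ratio source, replicate left out and replicate block.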

Additional observations from a re-analysis of the deposited data

Results flagged for a closer look

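Among named genes kept and list medians, a few values in YPA had the opposite sign from both SC replicates at 2 h. For genes, the YPA difference was at least 1 in size and both SC samples of 4Gts lay beyond both of WT the other way. In each case the difference between media was not tested. MTD1, a dehydrogenase of the one-carbon pathway, differed by 1.25 in mRNA in YPA (log2, 4Gts minus WT) and by −0.608 and −0.9 in the 2 SC replicates. PHM6, a phosphate-responsive gene, differed by 1.74 in footprints in YPA and by −0.589 and −0.715 in SC, on 58.4 RPKM in 4Gts and 15.9 RPKM in WT in YPA. TIF4631 differed by −1.22 in footprints in YPA and by 0.147 and 1.86 in SC. Its TE was lower in both media, by −0.94 in YPA and −0.61 in SC (limma adjusted p = 0.343). Its mRNA differed by −0.28 in YPA and by 1.62 in SC (limma adjusted p = 0.123, 0.034 with the block). The glycolysis and ethanol list had a median TE difference of 0.31 in YPA and −0.34 in each SC replicate.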

How the results depend on the processing

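Among genes kept that the rules above named, no difference of at least 1 changed sign under an alternative that was run. Of these differences, 8 dropped under 1 in size under at least 1 setting, without scaling or with quantile normalization. Genes not kept, such as CLN3 and TIF4632, and genes chosen after their values were seen were not in this check. Of 486 differences of named genes, adding 0.1 in place of 1 moved none beyond its 95% counting interval, and neither did the authors' deposited ratio for 148 TE values; leaving out the scaling moved 7 and quantile normalization 127, by at most 0.46. The filter changed the number of genes and with it the counts. With at least 30 RPKM in all 4 libraries (2770 genes), 94 genes passed 1 in TE (56 higher, 38 lower), or 3.39% beside 4.66% with the main filter. In mRNA 199 were higher, and 23.2% passed either way, beside 21.8%. In footprints 673 passed (290 higher, 383 lower), or 24.3% beside 23.7%. With no filter (6200 genes) 796 (12.8%) passed in TE (388 higher, 408 lower). In mRNA 1633 (26.3%) passed (601 higher, 1032 lower), and in footprints 1615 (26.0%), 953 of them lower. With at least 32 reads in all 4 libraries (3886 genes), a limit chosen after seeing the data, 124 (3.19%) passed in TE (65 higher, 59 lower).

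In SC at 2 h, no filter left 0 genes called by limma in TE against 8, the replicate block gave 321, and leaving out 1 replicate gave 0 to 98, the 98 without 4Gts replicate 1 at 2 h. In SC mRNA no scaling gave 51 genes against 3, the block 1244 and leaving out 1 replicate 0 to 4. The cause of these shifts was not tested. Without scaling, footprints split into 526 higher and 536 lower genes. The features of leader sequence and their alternatives were not run, since no genome sequence was used here. The main limits are 1 culture a side, the shallow 4Gts footprint library, and no measure of changes shared by all genes.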

Other observations

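Several transporter genes lay outside the genes kept because 1 library or more was below the limit; they were chosen after their values were seen. HXT2, a hexose transporter of intermediate affinity, had 402 RPKM of mRNA in 4Gts and 240.0 RPKM in WT, but 269.6 RPKM of footprints in 4Gts and 4.92 RPKM in WT at 2 h in YPA. At 0 h the strains were closer, with 467.6 RPKM of footprints in 4Gts and 272.8 RPKM in WT. In SC at 2 h HXT2 footprints were low in both strains, at 2.09 and 20.96 RPKM in 4Gts and 2.90 and 1.36 RPKM in WT, on mRNA of 262 and 326 RPKM in 4Gts and 127 and 36.7 RPKM in WT. HXT3, a low-affinity transporter, had 144 RPKM of mRNA in 4Gts and 4.09 RPKM in WT, with 8.36 RPKM of footprints in 4Gts and 1.46 RPKM in WT. PHO89, a phosphate transporter, had 421 RPKM of mRNA in 4Gts and 23.8 RPKM in WT, and 49.996 RPKM of footprints in 4Gts and 1.12 RPKM in WT.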
